A study of Mus musculus with 20 samples.

Results

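The 20 sequenced mouse brains fell apart in their level of *Tph2*, the brain form of tryptophan hydroxylase, and the brains with high *Tph2* are described here against those with low *Tph2*. The split was made on *Tph2* itself, in CPM (reads of a gene scaled to a common total in every brain). High brains held 7 CPM or more, low brains under 2 CPM, and a brain between these limits was left out. This gave 7 high brains and 12 low brains out of 20, with 1 brain between. The brains came from *Winnie* mice, whose mutation in the mucin gene *Muc2* gives them spontaneous colitis, and from C57BL/6 mice, 10 of each, all aged 14 weeks and with both sexes labelled in each genotype. The labels give no further allele and no treatment for either genotype, and each library was the brain of a single mouse. Which of these brains entered the brain comparison of the study is not given in the sources used here, so all were used. The high brains were 4 from C57BL/6 and 3 from *Winnie* mice, and the low brains were 5 from C57BL/6 and 7 from *Winnie* mice.

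Serotonin in the brain is made by a small group of neurons whose cell bodies lie in the raphe nuclei of the brainstem, while their axons reach most of the brain. These neurons take up tryptophan, hydroxylate it with the enzyme encoded by *Tph2*, and decarboxylate the product with the enzyme encoded by *Ddc*. The vesicular transporter *Slc18a2* loads serotonin for release and the plasma membrane transporter *Slc6a4* takes it back up. Their identity is set by transcription factors that include *Fev*, *Lmx1b*, *Gata2*, *Gata3* and *En1*. Since the transcripts sit mainly in the cell bodies, *Tph2* is used as a marker of the raphe. In bulk RNA, fewer cells of a type and less RNA per cell cannot be told apart.

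The stretches of DNA before the starts of *Tph2*, *Slc6a4* and *Fev* are shown because these transcripts, the defining ones of the serotonin neuron, moved together across the brains. *Fev* encodes a factor of the ETS family, which binds DNA around the letters GGAA. Each stretch is the 150 bases before the RefSeq start on GRCm38.p6, read 5′ to 3′ on the strand of the gene, with GGAA or its reverse TTCC in capitals. They lie at chr10:115185023-115185172 on the minus strand for *Tph2*, chr11:76998447-76998596 on the plus strand for *Slc6a4*, and chr1:74885409-74885558 on the minus strand for *Fev*.
Tph2: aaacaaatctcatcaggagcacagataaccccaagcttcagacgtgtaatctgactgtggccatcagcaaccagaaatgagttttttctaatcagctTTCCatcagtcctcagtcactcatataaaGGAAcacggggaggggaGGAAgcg
Slc6a4: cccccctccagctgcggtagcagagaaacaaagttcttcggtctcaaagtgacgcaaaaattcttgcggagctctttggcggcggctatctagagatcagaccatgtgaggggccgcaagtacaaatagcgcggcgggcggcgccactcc
Fev: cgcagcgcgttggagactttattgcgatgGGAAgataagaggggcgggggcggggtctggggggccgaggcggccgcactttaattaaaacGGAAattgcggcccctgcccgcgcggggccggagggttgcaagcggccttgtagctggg
The letters occurred 3 times before *Tph2*, 2 times before *Fev* and 0 times before *Slc6a4*. Among all 32851 RefSeq windows of this length, 80.8% held them at least once.

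Before the results, the sex labels had to be read with care. *Xist*, transcribed in females, and *Ddx3y*, on the Y chromosome, went against the label in 9 of 10 C57BL/6 brains and in 0 of 10 *Winnie* brains. By these transcripts the high brains held 4 with *Xist* and 3 with *Ddx3y*, and the low brains held 6 of each. The labelled tissue was also read against markers of the cerebellum. *Gabra6*, the receptor subunit of cerebellar granule cells, lay at 1.81 CPM or less and *Pcp2*, of Purkinje cells, at 1.76 CPM or less in 19 brains, against 7.44 and 5.02 CPM in the brain between the classes, so these defining transcripts were close to absent from nearly all extracts labelled brain. Total reads ran from 16540303 to 23923769 per brain, with 1 read worth at most 0.0605 CPM.

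*Tph2* lay far apart in the 2 classes, by construction. In the high C57BL/6 brains it stood at 9.61, 13.3, 8.04 and 7.99 CPM, and in the high *Winnie* brains at 10.7, 9.76 and 11.2 CPM. The low C57BL/6 brains held 0.836, 0.734, 1.03, 1.66 and 1.52 CPM. In the low *Winnie* brains it ranged from 0.523 to 1.61 CPM with a median of 0.644 CPM. The lowest high brain was therefore C57BL/6 replicate 9 at 7.99 CPM and the highest low brain C57BL/6 replicate 6 at 1.66 CPM, with C57BL/6 replicate 10 between them at 3.98 CPM. Mean *Tph2* was 10.1 ± 1.86 CPM (SD, n = 7) in high and 0.924 ± 0.432 CPM (SD, n = 12) in low brains, from 133 to 260 reads and from 10 to 31 reads per brain. These values chose the brains, and no test was made on them.

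The classes were next set against labels and depth that the split did not use. High brains were 4 of the 9 classified C57BL/6 brains and 3 of the 10 *Winnie* brains (two-sided Fisher's exact test, p = 0.65, adjusted p = 0.905 over 4 tests). By labelled sex they were 4 with 6 low among females and 3 with 6 low among males (two-sided Fisher's exact test, p = 1). Mean total reads were 18890163 in high and 19263703 in low brains (two-sided exact permutation test, p = 0.679, adjusted p = 0.905). The library number of the labels, 1 to 10 in C57BL/6 and 11 to 20 in *Winnie*, averaged 9.29 in high and 11.2 in low brains (two-sided exact permutation test, p = 0.531, adjusted p = 0.905). With this few brains, a moderate unevenness would not have passed these tests.

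To ask which other genes varied with *Tph2*, all 17210 other genes were compared on log2(CPM + 0.5) with limma, with genotype as a covariate and the false discovery rate (FDR) adjusted over all of them. A gene was called at an FDR under 0.05. The p-values say only that a gene varied with *Tph2* across these mice, since the brains were grouped by a measured transcript and not by an intervention. In the high brains 121 genes (0.703% of those compared) rose and 28 genes (0.163%) fell. The genes that rose had a median log2 difference of 0.28 and the genes that fell one of -0.20, while the median over all genes was 0.04. A difference of at least 1.5-fold, the minimum in the methods of the study, was seen in 25 of the genes that rose and in 0 of the genes that fell, whose lowest log2 difference was -0.32. The balance of directions moved with scaling: 81.2% of the calls were higher with the CPM as deposited, 55.6% with median-ratio scaling, 66.0% with quantile normalization, 55.0% with edgeR and 36.2% with DESeq2. Separation without overlap, every high brain above every low brain, was found for 18 genes (0.105%).

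**Figure D1:**
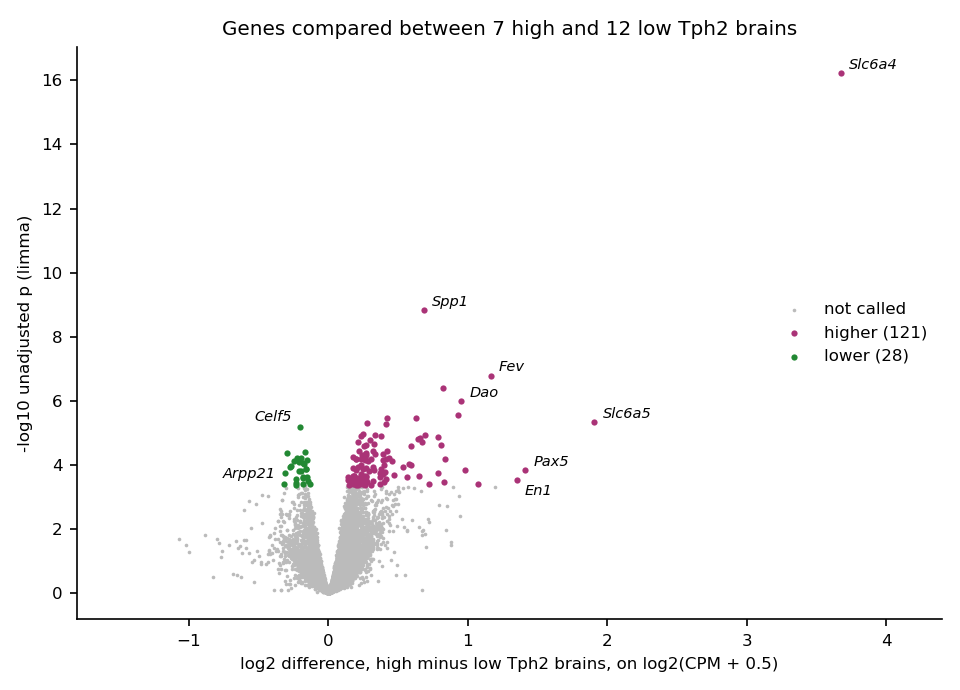
Each point is a gene, with its log2 difference between 7 high and 12 low *Tph2* brains on the x axis and the negative log10 of the unadjusted limma p on the y axis; coloured points are the 121 genes called higher and the 28 called lower. *Slc6a4* stands alone at the upper right, with a log2 difference of 3.67, and the genes that fell lie between -0.32 and 0.

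The serotonin neuron genes were higher in the high brains. Their list, like the other gene lists, was chosen with earlier results of these data known. Of the 11 genes on this list, 6 rose, *Slc6a4*, *Fev*, *En1*, *Ddc*, *Gch1* and *Gchfr*, 0 fell and 5 did not pass the test. All 11 log2 differences were positive with a median of 0.78, against 0.04 over all genes. The summed level of the list was 98.8 to 126 CPM in high and 47.1 to 83.4 CPM in low brains, so the sums did not overlap. *Slc6a4*, *Fev* and *Gchfr* met the low-count limit of the deposited table (0.5 CPM in at least 4 brains) only through the high brains, so a difference was built into their listing.

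*Slc6a4* followed *Tph2* most closely. It held 8.38, 12.4, 6.95 and 7.83 CPM in the high C57BL/6 brains and 9.70, 7.45 and 10.2 CPM in the high *Winnie* brains. The low C57BL/6 brains held 0.125, 0, 0.155, 0.276 and 0.676 CPM, and the low *Winnie* brains 0.053 to 0.885 CPM. No high brain came near a low one, and the brain between the classes again lay between, at 3.69 CPM. The log2 difference was 3.67 (SE 0.173, limma FDR = 1.01e-12), and mean CPM was 33.1-fold higher. The *Slc6a4* gene (chr11:76998603-77032340) overlaps an annotated antisense transcript, *Gm12343*, from which its reads could not be told apart without strand.

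*Fev* (chr1:74881509-74885419), the ETS factor, was at the edge of detection. It ranged from 0.242 to 1.99 CPM in high brains, with a median of 0.858 CPM, and from 0 to 0.249 CPM in low brains, with a median of 0.104 CPM. These were 4 to 39 reads and 0 to 5 reads per brain. Of the 7 high brains, 6 exceeded every low brain, and C57BL/6 replicate 8 at 0.242 CPM did not. The log2 difference was 1.16 (SE 0.168, limma FDR = 9.36e-04), which is understated at such low levels by the 0.5 added before the logarithm.

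*Ddc*, which completes serotonin synthesis and also serves dopamine neurons, ranged from 19.1 to 28.2 CPM in high brains with a median of 19.8 CPM, and from 6.77 to 18.6 CPM in low brains with a median of 14 CPM. The classes did not overlap. Its log2 difference was 0.78 (SE 0.164, limma FDR = 0.0359). *En1*, a homeobox gene of the midbrain and anterior hindbrain, ranged from 2.54 to 5.75 CPM in high brains. In low brains it ranged from 0.262 to 2.48 CPM, again without overlap but with a gap of about 1 read. Its log2 difference was 1.35 (SE 0.296, limma FDR = 0.0434). Both calls depended on which brains were kept, with *Ddc* called in 9 and *En1* in 7 of 19 fits that each left out 1 brain.

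*Gch1*, which makes the first intermediate of the tetrahydrobiopterin needed by tryptophan hydroxylase, rose from a mean of 1.61 ± 0.362 CPM (SD, n = 12) to 2.86 ± 0.695 CPM (SD, n = 7). Its log2 difference was 0.66 (SE 0.126, limma FDR = 0.0128), and 6 of 7 high brains lay above every low brain. *Gchfr*, the feedback regulator of that enzyme, stood at 0.259 to 0.911 CPM in high and 0.054 to 0.398 CPM in low brains, with a log2 difference of 0.64 (SE 0.123, limma FDR = 0.0129). Both were called in all 19 fits that left out 1 brain.

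The 5 serotonin neuron genes that did not pass the test differed in how near they came. *Slc18a2*, which all monoamine neurons use, held 16.7 to 24.3 CPM in high and 3.39 to 16 CPM in low brains. Its classes did not overlap, yet its low brains were spread widely, and its log2 difference of 1.20 (SE 0.276) had a limma FDR of 0.0515, against an FDR of 0.00647 in DESeq2. *Lmx1b* had a log2 difference of 0.66 (FDR = 0.0568) and *Gata3* one of 0.84 (FDR = 0.168). *Gata2*, at 5.08 to 9.22 CPM in high and 4.39 to 8.55 CPM in low brains, had a log2 difference of 0.14 (FDR = 0.454). *Maob*, a monoamine oxidase that astrocytes also express, had one of 0.13 (FDR = 0.22). Their levels therefore did not all move with *Tph2* to a like extent.

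**Figure D2:**
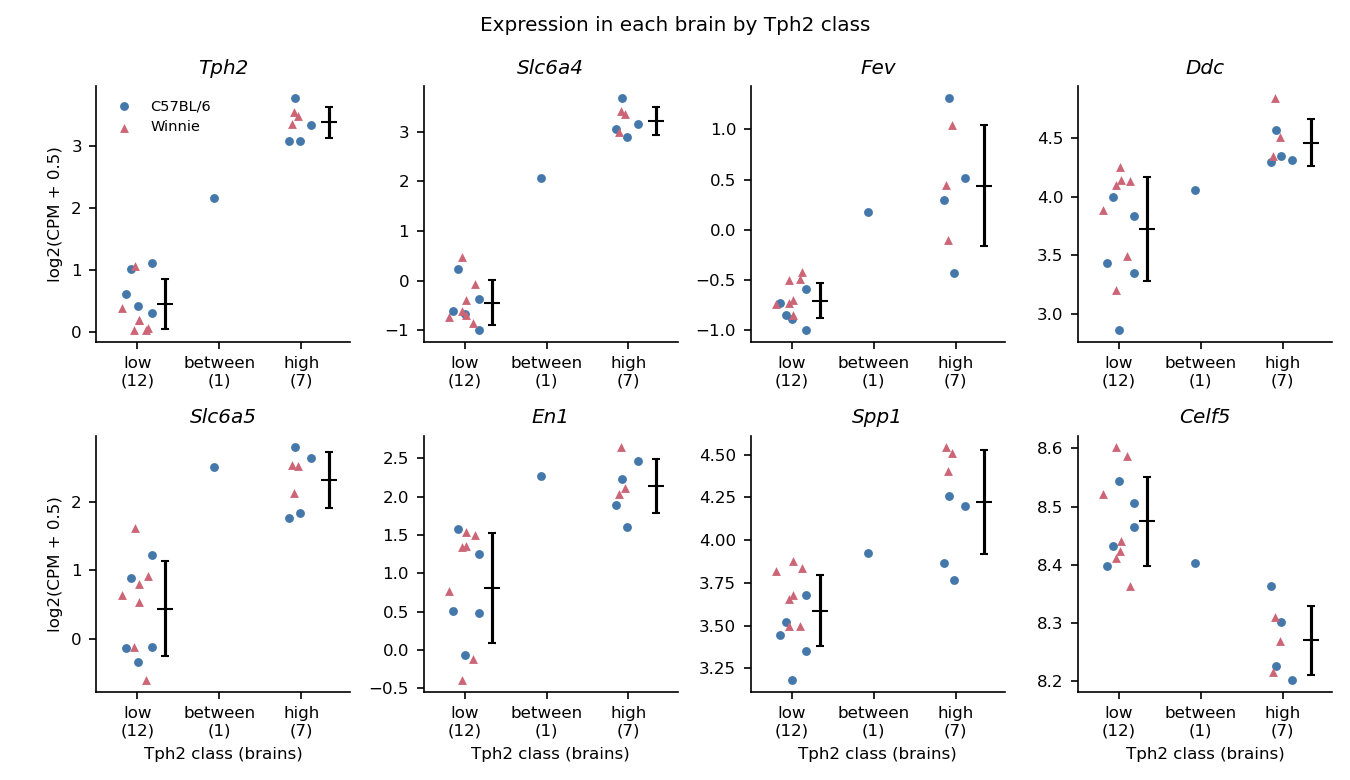
Expression on log2(CPM + 0.5) in each of the 20 brains for *Tph2* and 7 further genes, by *Tph2* class; circles are C57BL/6 and triangles *Winnie* brains, and bars give the mean and SD of the class. *Slc6a4*, *Ddc*, *Slc6a5* and *En1* show no overlap between the classes, *Fev* and *Spp1* overlap in part, and *Celf5* is lower in the high brains.

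The serotonin pathway was also read as a list of its own. Of its 11 measured enzymes and transporters, 3 rose, *Slc6a4*, *Ddc* and *Gch1* already described, and 9 had an unadjusted limma p under 0.05. Over all 17210 genes compared 2745 had such a p, the background for this count and for those on the lists below. *Spr*, which completes tetrahydrobiopterin synthesis, lay at 18.8 to 22.0 CPM in high and 13.5 to 21.2 CPM in low brains, with a log2 difference of 0.20 (limma FDR = 0.0841). *Maoa*, the oxidase that degrades serotonin, had a log2 difference of 0.14 (FDR = 0.27). Of the 12 measured serotonin receptors 0 were called by limma, edgeR or DESeq2 and 3 had an unadjusted limma p under 0.05, with a median log2 difference of -0.09. *Htr7* came nearest, at 14.9 to 17.3 CPM in high and 10.5 to 15.8 CPM in low brains, with a log2 difference of 0.23 (FDR = 0.0848), and *Htr1a*, the autoreceptor of serotonin neurons that many forebrain neurons also carry, had one of 0.10 (FDR = 0.485).

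*Ddc*, which the study names among the tryptophan genes of the colon, was called here, as described above. The lists read next leave it out. Of the 8 measured enzymes of tryptophan and kynurenine metabolism 0 were called, with a median log2 difference of 0.11, and of 11 brain genes that the study names and that were measured here 0 were called, with a median of 0.11. *Tph1*, *Aoc1* and *Cyp1a1*, which the study also names in the brain, were not analysed here. *Tdo2*, a tryptophan dioxygenase, had a log2 difference of 0.25 (limma FDR = 0.232). *Ido1*, another of the dioxygenases, which also include *Ido2*, ranged from 0.325 to 1.61 CPM in high and from 0.151 to 2.67 CPM in low brains. The log2 difference of *Ido1* was -0.44 (FDR = 0.443). *Aox1*, an aldehyde oxidase, had a log2 difference of 0.25 (FDR = 0.123), and *Cd38*, which consumes NAD, one of 0.27 (FDR = 0.104). At an unadjusted limma p under 0.05 there were 2 on the first list and 3 on the second, with 0 called by edgeR or DESeq2, and at this spread between mice smaller differences would not have been detected.

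Genes of other brainstem neurons were higher too. On the list for brainstem projection and glycine neurons 6 of 8 genes rose, *Slc6a5*, *Spp1*, *Glra1*, *Sncg*, *Vamp1* and *Nefh*, and 0 fell. All 8 log2 differences were positive, with a median of 0.50. The summed level of the list was 874 to 1020 CPM in high and 626 to 851 CPM in low brains, without overlap.

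*Slc6a5*, the transporter by which glycine neurons recover their transmitter and which marks neurons of the brainstem and spinal cord, held 5.69, 6.42, 3.08 and 2.90 CPM in the high C57BL/6 brains and 5.24, 5.31 and 3.85 CPM in the high *Winnie* brains. In the low brains it ranged from 0.158 to 2.55 CPM with a median of 1.0 CPM, so the classes did not overlap. Its log2 difference was 1.91 (SE 0.289, limma FDR = 0.0083). *Glra1*, the glycine receptor subunit of the same regions, rose by 0.83 on the log2 scale (SE 0.185, FDR = 0.045), from 3.05 to 12.5 CPM in low brains and 11.3 to 16.6 CPM in high brains. *Slc6a5* was called in all 19 fits that left out 1 brain and *Glra1* in 6 of them.

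*Spp1*, the secreted phosphoprotein osteopontin, found in large brainstem neurons and also in activated microglia, had the second smallest p of all genes. It ranged from 13.1 to 22.8 CPM in high brains with a median of 18.6 CPM, and from 8.57 to 14.2 CPM in low brains with a median of 11.6 CPM. The classes overlapped, with 5 of 7 high brains above every low brain. Its log2 difference was 0.69 (SE 0.0783, limma FDR = 1.27e-05). Of the 8 microglia markers 0 were called, and their summed level was 272 to 332 CPM in high and 274 to 357 CPM in low brains.

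*Nefh*, the heavy neurofilament of thick axons, went from a mean of 111 ± 12 CPM (SD, n = 12) in low to 136 ± 8.39 CPM (SD, n = 7) in high brains, a log2 difference of 0.30 (SE 0.0573, limma FDR = 0.0141). *Vamp1*, the vesicle protein of fast brainstem and spinal synapses, had a log2 difference of 0.40 (FDR = 0.0267), and *Sncg*, gamma-synuclein, one of 0.59 (FDR = 0.0269). Those that did not pass were *Nefm*, the medium neurofilament, at 0.25 (FDR = 0.0567) and *Slc17a6*, the vesicular glutamate transporter of brainstem, thalamus and other subcortical neurons, at 0.40 (FDR = 0.167).

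Markers of the other monoamine neurons were read next. *Dbh*, which makes noradrenaline and was the single noradrenaline marker measured, held 0.596 to 5.29 CPM in high and 0.258 to 0.552 CPM in low brains. The classes did not overlap, but these were 11 to 108 reads against 5 to 10 reads, and its log2 difference of 0.94 (SE 0.241) had a limma FDR of 0.0664. *Dbh* also met the low-count limit only through the high brains, so a difference was built into its listing. Of the 8 midbrain dopamine genes 1 rose, *Aldh1a1*, an aldehyde dehydrogenase that other cells also express, by 0.43 on the log2 scale (SE 0.0852, FDR = 0.0217). An unadjusted limma p under 0.05 was found for 7 of the 8, against 2745 of all 17210 genes. Positive differences were also 7 of 8, with a median of 0.49, close to the 0.50 of the brainstem projection and glycine neuron list. *Th*, which makes the dopamine precursor, had a log2 difference of 0.67 (FDR = 0.194), *Slc6a3*, the dopamine transporter, one of 0.88 (FDR = 0.235), and *Chrna6*, a nicotinic receptor subunit, one of 0.71 (FDR = 0.124). Their values in low brains were wide: *Slc6a3* ran from 5.2 to 30.9 CPM there and from 22.8 to 36.6 CPM in high brains.

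Outside these lists, the 12 largest rises included the following transcription factors, which form no list of their own. *Pax5*, a paired box factor of the boundary between midbrain and hindbrain, held 2.80 to 5.91 CPM in high brains. In low brains it held 0.263 to 2.76 CPM, without overlap but with a gap of less than 1 read. The log2 difference of *Pax5* was 1.41 (SE 0.289, limma FDR = 0.0314). *Irx2* and *Irx3*, Iroquois factors, had log2 differences of 0.98 (FDR = 0.0316) and 0.67 (FDR = 0.0148). The LIM homeobox genes *Lhx5* and *Lhx1* had differences of 0.59 (FDR = 0.0159) and 0.58 (FDR = 0.0254), and *Mab21l1*, a developmental gene, one of 0.84 (FDR = 0.0217). *Barhl1*, on the cerebellar granule cell list but also a factor of brainstem and other nuclei, was the 1 called of 9 genes there, with 1.07 (FDR = 0.0485). With median-ratio scaling 0 of the 9 were called, and *Barhl1* lost its call in many of the fits that left out 1 brain. Some low-level factors of the hindbrain and cord were singled out after their values were seen, *Lhx4* at 0.80 (FDR = 0.0159), *Evx2* at 0.78 (FDR = 0.0128) and *Pax8* at 0.69 (FDR = 0.0128), each at 1.30 CPM or less in every brain and listed only through the high brains. The 18 *Hox* genes listed for the hindbrain were not analysed here.

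The other large rises were of varied function. *Dao*, D-amino acid oxidase, which breaks down D-serine and is known from hindbrain glia, held 1.34 to 2.07 CPM in high brains. In low brains it held 0.209 to 1.32 CPM, without overlap but with a gap of less than 1 read. The log2 difference of *Dao* was 0.95 (SE 0.153, limma FDR = 0.00357). *C1ql4*, a secreted C1q-like protein, had a difference of 0.93 (FDR = 0.00754) and *Vwa7* one of 0.82 (FDR = 0.00174). *C130021I20Rik*, a transcript next to *Lmx1b* on chromosome 2, had a difference of 0.72 (FDR = 0.0483). *Ahnak2* had one of 0.63 (FDR = 0.00754). *Syt2*, the calcium sensor of fast transmitter release in the brainstem, was the most abundant of the 12, at 111 to 159 CPM in high and 70.6 to 128 CPM in low brains, with a difference of 0.53 (FDR = 0.0289).

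The genes that fell did so by small amounts. The largest fall was that of *Arpp21*, a phosphoprotein of striatal and cortical neurons, from a mean of 340 ± 50.9 CPM (SD, n = 12) in low to 277 ± 23.9 CPM (SD, n = 7) in high brains, a log2 difference of -0.32 (SE 0.0741, limma FDR = 0.0485). *Cckbr*, the cholecystokinin receptor of the forebrain, had a difference of -0.28 (FDR = 0.0289), and *Ctxn1*, cortexin, one of -0.31 (FDR = 0.0353). *Arhgap33*, a GTPase regulator of synapses, had one of -0.30 (FDR = 0.0216). *Baiap2* and *Shisa7*, of the postsynaptic membrane, had differences of -0.23 (FDR = 0.0483) and -0.22 (FDR = 0.0217). The other 6 of the 12 lowest were *Zscan22*, *Fbxl16*, *Cdk5r2*, *Actn1*, *Lzts1* and *Celf3*, between -0.27 and -0.21. For these 12 genes the 2 classes overlapped in every case.

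*Celf5*, a neuronal RNA-binding protein and a relative of *Celf3*, was the single gene that fell in all 19 fits that left out 1 brain, for which it was singled out after its values were seen. It held 294 to 329 CPM in high brains, with a median of 308 CPM, and 329 to 388 CPM in low brains, with a median of 350 CPM, and 6 of 7 high brains were below every low brain. Its log2 difference was -0.20 (SE 0.0371, limma FDR = 0.00967).

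Lists for the forebrain gave no calls. All 9 striatal genes had negative differences, with a median of -0.64, the lowest median of any list, yet 0 were called and 6 had an unadjusted limma p under 0.05. Over all genes 2745 had such a p. *Adora2a*, of indirect pathway neurons, ranged from 5.58 to 24.3 CPM in high and from 4.68 to 46.1 CPM in low brains, and its difference of -1.02 had a limma FDR of 0.259. *Drd1* (-0.71, FDR = 0.259), *Ppp1r1b* (-0.66, FDR = 0.234) and *Pde10a* (-0.59, FDR = 0.229), all of striatal neurons, were spread as widely. The summed striatal level was 366 to 828 CPM in high and 362 to 1280 CPM in low brains, so low brains held both the lowest and the highest values. On the cortex list 0 of 10 genes were called, with a median of -0.05. Limma calls were also 0 on the lists for hippocampus (6 genes), hypothalamus (13), thalamus and habenula (8), olfactory bulb (5), Purkinje cells (7) and cholinergic motor neurons (6). Among these *Pou4f1*, a factor of the habenula and some brainstem nuclei, had a difference of 0.60 (FDR = 0.127), and the motor neuron genes *Prph* and *Calca* had differences of 0.41 (FDR = 0.0556) and 0.35 (FDR = 0.0745).

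Lists for glia and for cells outside the nervous tissue gave few calls. Of 12 oligodendrocyte genes 1 rose, *Mobp*, a myelin protein, from 947 to 1120 CPM in low and 1060 to 1230 CPM in high brains, a log2 difference of 0.18 (SE 0.0372, limma FDR = 0.0217). All 12 differences were positive, with a median of 0.11, and 7 had an unadjusted limma p under 0.05, against 2745 of all 17210 genes. With median-ratio scaling 0 of the 12 were called, with edgeR 0 and with DESeq2 1, *Mobp*. Of 9 astrocyte genes 1 rose, *S100b*, by 0.17 (FDR = 0.0439), and with median-ratio scaling 0 were called. On the lists for choroid plexus (10 genes), endothelium (6), meningeal fibroblasts (8), erythroid cells (5), oligodendrocyte precursors (3), Schwann cells (4), pituitary (3) and pineal gland (1), 0 were called. Of the 10 immediate-early genes 0 were called, with a median of -0.28 and a summed level of 405 to 1360 CPM in high and 520 to 1900 CPM in low brains. Of all 22 measured lists on which limma called 0 genes, edgeR called 0 on 21, the exception being *Dbh* (FDR = 0.0344), which was listed only through the high brains. On those lists that have not been given such a count, at most 2 genes had an unadjusted limma p under 0.05.

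**Figure D3:**
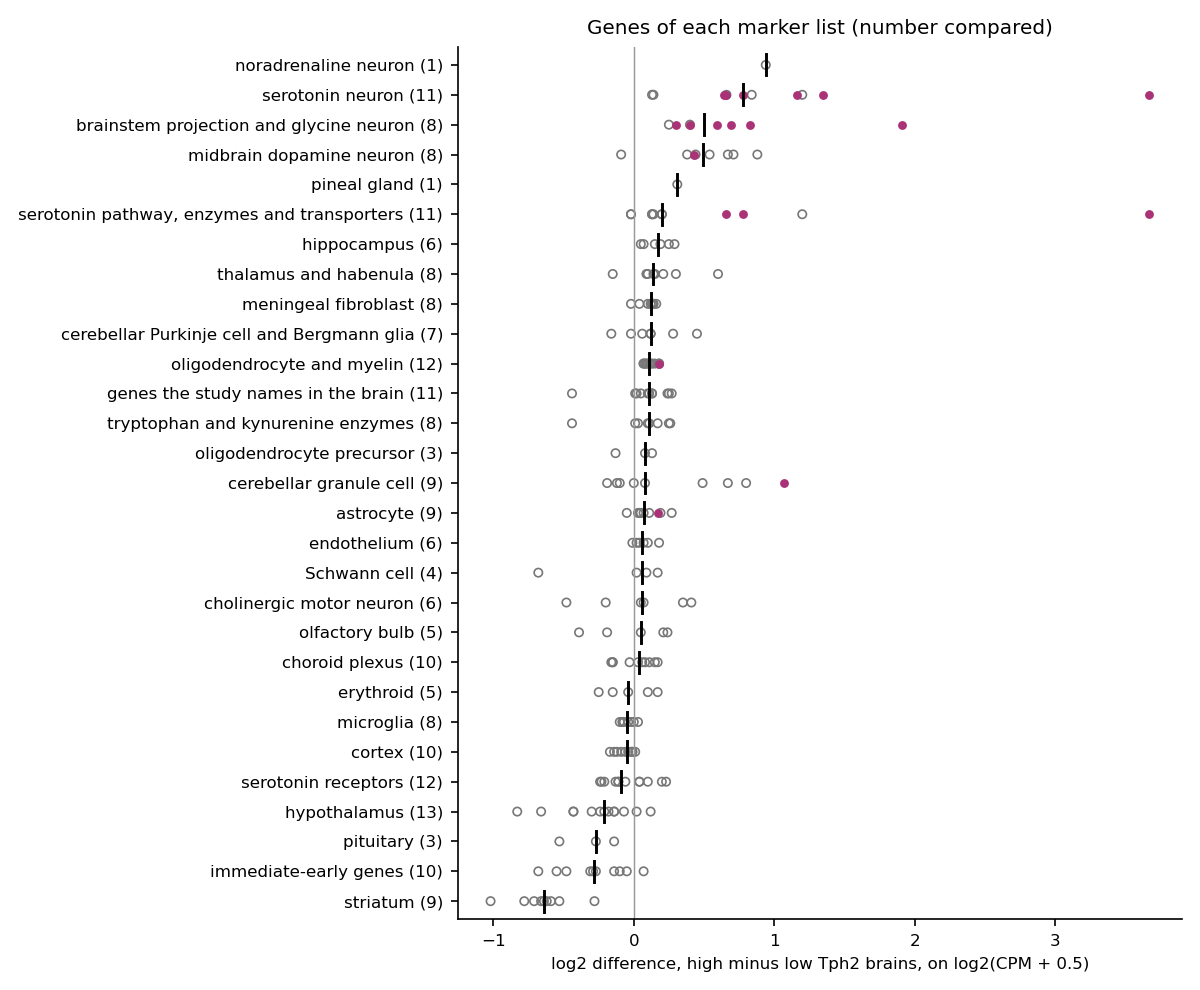
Each row is a marker list with the number of its genes compared, and each circle a gene at its log2 difference between high and low *Tph2* brains; filled circles passed an FDR under 0.05 and the vertical bar is the median of the list. Filled circles gather on the serotonin neuron list (6 of 11) and the brainstem projection and glycine neuron list (6 of 8), and the striatal list has the lowest median, -0.64, with 0 of 9 called.

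The difference between the classes was next read within each genotype, in brains that the other genotype did not share. In C57BL/6 brains alone, 4 high against 5 low, *Slc6a4* had a log2 difference of 3.68 (95% interval 3.21 to 4.15), and in *Winnie* brains alone, 3 high against 7 low, one of 3.66 (3.18 to 4.15). *Slc6a5* had differences of 1.95 and 1.85, *Fev* of 1.23 and 1.09, *En1* of 1.30 and 1.41, *Pax5* of 1.31 and 1.52, and *Spp1* of 0.58 and 0.79. *Celf5* had differences of -0.20 and -0.21. At an FDR under 0.05 the C57BL/6 brains gave 3 genes higher and 1 lower, and the *Winnie* brains 2 higher and 0 lower, with *Slc6a4* in both.

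At an unadjusted limma p under 0.001, 73 genes (0.424%) rose and 40 (0.232%) fell in the C57BL/6 brains. Of the 73, 61 were also higher in the high *Winnie* brains and 25 of them with an unadjusted p under 0.05, where 58.6% and 6.47% of all genes were so. Of the 40, 35 were also lower in *Winnie* and 4 of them with p under 0.05, against 41.4% and 2.93% of all genes. Read the other way, 46 genes (0.267%) rose and 11 (0.0639%) fell in the *Winnie* brains at p under 0.001. Of the 46, 39 were higher in C57BL/6 and 21 with p under 0.05, against 67.1% and 8.59% of all genes. Of the 11, 7 were lower in C57BL/6 and 1 with p under 0.05, against 32.9% and 2.70%. The direct test of whether the class difference itself differed by genotype, a limma interaction term, called 0 genes. Of all 17210 genes 835 had an unadjusted interaction p under 0.05, and the smallest FDR was 0.656.

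**Figure D4:**
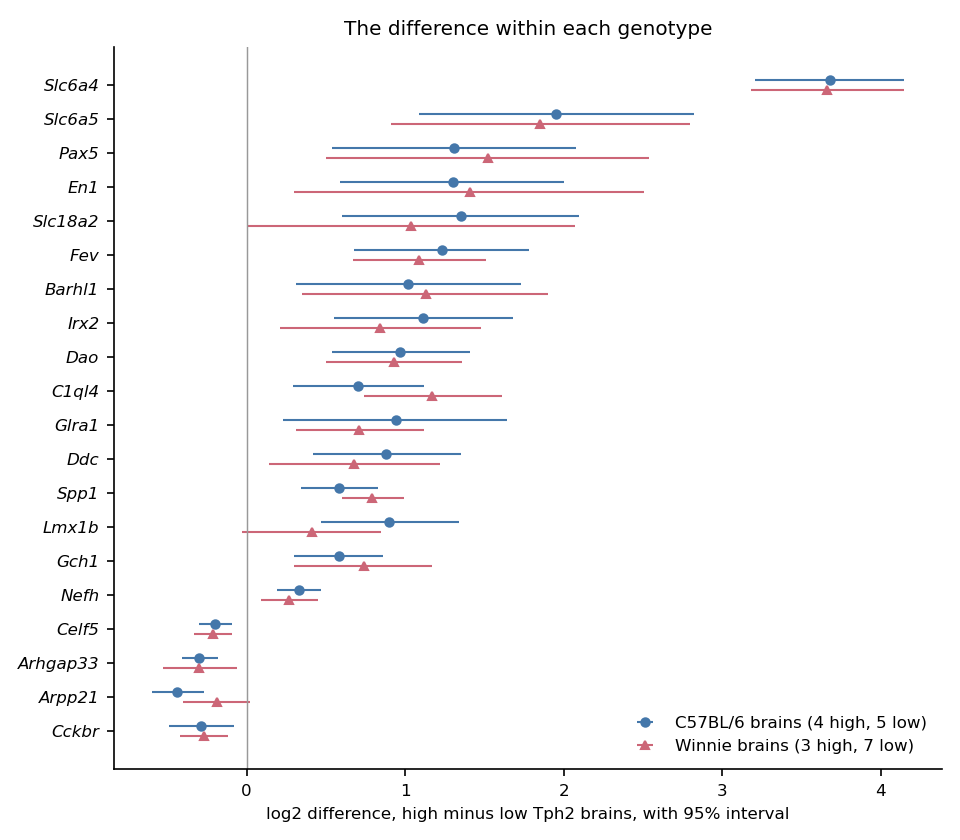
The log2 difference between high and low *Tph2* brains for 20 genes, with its 95% interval, in C57BL/6 brains (circles) and in *Winnie* brains (triangles). The intervals of the genotypes overlap for every gene shown, those of *Lmx1b* and *Arpp21* include 0 in *Winnie*, and that of *Slc18a2* begins there at 0.00.

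Genes called between the genotypes were counted beside those called by *Tph2* class. Over all 20 brains 434 genes (2.52%) were called between *Winnie* and C57BL/6 at a limma FDR under 0.05. With log2 *Tph2* added to the fit there were 630 (3.66%), of which 415 were called both ways, 95.6% of the shorter list and 65.9% of the longer. The number of genes called both by *Tph2* class and by genotype was 0 of the 149 called by class, where 2.52% of all genes were called by genotype, so nothing is read from this overlap.

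The brain left out of the comparison, C57BL/6 replicate 10, was also read for the called genes. It was the brain whose cerebellar markers *Gabra6* and *Pcp2* stood at 7.44 and 5.02 CPM. Of the 121 genes that rose, 107 were above the mean of the low C57BL/6 brains in it, and 32 exceeded the mean of the high C57BL/6 brains. Of the 28 genes that fell, 23 were below the low mean and 10 below the high mean. The same shares over all genes are not given here, so nearness to either class is not read from these counts. *Slc6a5* stood at 5.19 CPM and *En1* at 4.33 CPM in this brain, inside the range of the high brains, while *Dbh* at 0.346 CPM was inside that of the low brains.

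Over all 20 brains, with genotype means removed, the genes whose log2 level was most like that of *Tph2* were *Slc6a4* (Pearson's r = 0.985), *Spp1* (0.923), *Slc6a5* (0.894), *C1ql4* (0.867), *Vwa7* (0.847), *Rcbtb1* (0.843), *Kank4* (0.841), *Nxpe3* (0.835), *Etohd2* (0.834) and *Syt2* (0.834). Since the brains form separate clusters of *Tph2*, these values describe mainly the gap between the classes, and no p was computed. Within classes, 22 relations of serotonin neuron genes to *Tph2* were computed. Among the 7 high brains *Slc6a4* had Pearson's r = 0.92 (exact permutation test, p = 0.00516, adjusted p = 0.0612) and Spearman's rho = 0.82 (exact permutation p = 0.0341, adjusted p = 0.25), with r = 0.91 when the 2 brains farthest from the median *Tph2* were left out. None of the 22 passed an adjusted p under 0.05.

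How many genes were called depended on single brains. With each of the 19 brains left out in turn, between 27 and 232 genes rose and between 2 and 67 fell. Leaving out C57BL/6 replicate 2, the brain with the highest *Tph2*, gave 27 higher and 2 lower, and leaving out C57BL/6 replicate 7, a low brain, gave 232 higher and 67 lower. Without the other high brains the counts were 70 and 14 (C57BL/6 replicate 1), 73 and 10 (C57BL/6 replicate 8), 87 and 27 (C57BL/6 replicate 9), 79 and 20 (*Winnie* replicate 3), 40 and 14 (*Winnie* replicate 4) and 52 and 7 (*Winnie* replicate 6). Counts also moved by more than 1.5 times without the low brains C57BL/6 replicate 3 (64 and 11), C57BL/6 replicate 4 (74 and 16), C57BL/6 replicate 5 (56 and 8) and *Winnie* replicate 9 (78 and 20). Called in all 19 of these fits were 24 genes that rose and 1 that fell, the latter *Celf5*. Called in all 19 fits and in every other setting that used this FDR, all genes and 19 or 20 brains were 15 genes. A missing adjusted p from DESeq2 was let pass, which applied to 8 of them, so DESeq2 itself did not call those 8. Of the 15, *Slc6a4*, *Fev*, *Evx2* and *Pax8* met the low-count limit only through the high brains. A difference was thus built into their listing, and passing every setting adds little for them. In full, the 15 were *Slc6a4*, *Fev*, *Gch1*, *Slc6a5*, *Spp1*, *Nefh*, *Irx3*, *Dao*, *C1ql4*, *Vwa7*, *Evx2*, *Pax8*, *Ahnak2*, *Kank4* and *Kcng4*. Of the less known among them, *Kank4*, at 9.75 to 12.7 CPM in high and 6.96 to 10.1 CPM in low brains, had a log2 difference of 0.41 (limma FDR = 0.00839), and *Kcng4*, a potassium channel subunit singled out after its values were seen, one of 0.38 (FDR = 0.0128).

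**Figure D5:**
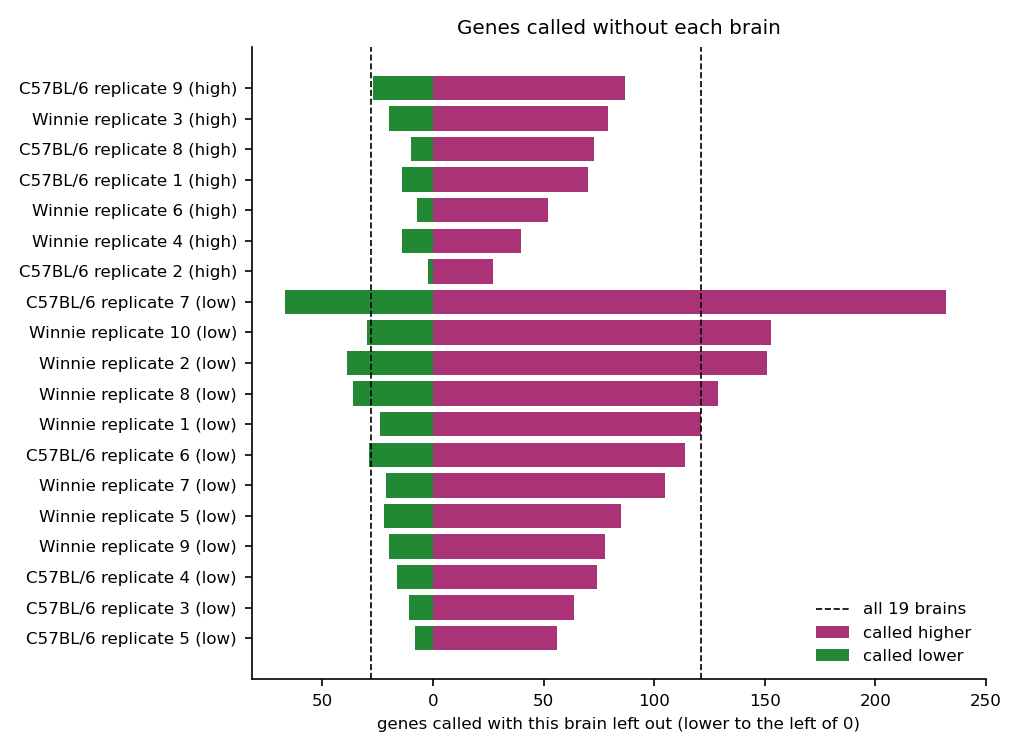
Bars to the right of 0 count the genes called higher, and bars to the left those called lower, when the named brain was left out; dashed lines mark 121 and 28, the counts with all 19 brains. The longest bars follow from leaving out C57BL/6 replicate 7 (232 and 67) and the shortest from leaving out C57BL/6 replicate 2 (27 and 2).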

How the data were processed

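Brain RNA was sequenced from polyA libraries as paired reads of 100 bases. The authors counted reads per gene with featureCounts in RNAsik 1.5.4 on GRCm38 and deposited CPM for 17211 genes; the aligner and the strand setting are not given in the sources used here. All deposited values were whole multiples of a single read (tolerance 0.1), so reads were recovered for edgeR and DESeq2. limma 3.58.1 in R 4.3.3, with trended robust variances, was fitted to log2(CPM + 0.5), with genotype as a covariate and Benjamini-Hochberg FDR; the exact tests used scipy 1.17.1. Scripts were tested on simulated data. P-values measure the spread between mice, and read-based limits cover counting error only. Coordinates come from GENCODE M21.

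The classes, members and 30 gene lists were chosen with earlier results of these data known. Named were all serotonin neuron genes, up to 4 genes per other list by smallest p, the 12 largest rises and falls outside the lists (mean CPM of 1 or more), the 10 genes most like *Tph2*, *Xist* and *Ddx3y*; exceptions are stated. Alternatives covered the pseudocount, filter, scaling, covariates, replicate block, edgeR 4.0.16, DESeq2 1.42.0, thresholds, other splits and brains left out. Among 90 pairs of same-genotype brains none agreed within sampling noise. Results for a few genes are not reported here.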

Additional observations from a re-analysis of the deposited data

Results flagged for a closer look

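Single brains stood apart from the others of their class and genotype for 10 of the 237 groups of values examined, where chance gives about 1 in 20. The count is no more than chance gives, so the values below are a description only. Among the low *Winnie* brains, *Tph2* was 1.61 CPM in replicate 1, against 0.523 to 0.805 CPM in the others. In the same group *Gata2* was 5.87 CPM in replicate 2, below 7.67 to 8.55 CPM, and *Gabra6* was 1.4 CPM in replicate 7, above 0.05 to 0.531 CPM. *Winnie* replicate 5 stood apart for *Lhx1* (1.83 CPM, against 2.99 to 3.78 CPM), *Cdk5r2* (359 CPM, against 268 to 303 CPM) and *Rcbtb1* (40.2 CPM, against 44.8 to 48.3 CPM). Among the low C57BL/6 brains, *Cckbr* was 71.0 CPM in replicate 3, above 52.9 to 56.8 CPM, *Ido1* was 0.883 CPM in replicate 6, below 2.14 to 2.46 CPM, and *Gabra6* was 1.81 CPM in replicate 5, above 0.125 to 0.442 CPM. Among the high C57BL/6 brains, *Pax8* was 0.882 CPM in replicate 9, above 0.539 to 0.561 CPM.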

How the results depend on the processing

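The counts of genes higher and lower in the high brains (121 and 28) moved with several choices. They were 55 and 44 with median-ratio scaling, 62 and 32 with quantile normalization, 43 and 10 without the genotype covariate, 71 and 58 with edgeR, 124 and 219 with DESeq2, 200 and 59 with *Tph2* as a number over 20 brains, and 51 and 10 with a split at the median. At the threshold of the study (FDR under 0.001 and at least a 1.5-fold difference) they were 3 and 0. C57BL/6 brains alone gave 3 and 1 and *Winnie* brains alone 2 and 0, with fewer brains tested. A split at 9 CPM or more against under 1 CPM, chosen after seeing the data, gave 73 and 11. Without 1 brain the counts ran from 27 to 232 and from 2 to 67. With a replicate block they were 61 and 17; the shared replicate numbers did not pair the brains (correlations from -0.55 to 0.30, with 0 of 10 brains best matched by its own number). The cause of these shifts was not tested. Of the 149 calls, 97 were also made by edgeR in the same direction. None of the 48 named called genes changed sign in any of the 36 settings. Depth limits genes such as *Slc6a4*, *Fev*, *Gchfr*, *Pax8* and *Dbh*, at 0 to 17 reads in each low brain.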
